A study of Saccharomyces cerevisiae with 22 samples.

Results

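The genes described here encode enzymes that make the branched-chain amino acids leucine, isoleucine and valine in the yeast Saccharomyces cerevisiae. They are LEU1, LEU4, LEU9, ILV1, ILV2, ILV3, ILV6, BAT1 and BAT2, chosen by name as members of the pathway, and they are 9 of the 6225 genes on the array. All 9 were among the 5911 genes bright enough to be tested. The study asked how yeast adapts to a mutant tRNA that inserts serine where the CUG codon calls for leucine. Expression was measured with 22 one-colour arrays in 8 groups, each lineage being a single colony isolated after long-term culture with the tRNA.

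All strains were self-diploids of BY4742 (MATα his3Δ1 leu2Δ0 lys2Δ0 ura3Δ0) grown to mid-log phase in synthetic complete medium without leucine. Lineages B3, D11 and H9 were each measured with the Candida albicans tRNA-CAG-Ser on a single-copy plasmid, and again after that plasmid had been exchanged for the empty vector. The unevolved ancestor was measured with the same plasmids. There were 2 arrays for B3 and 2 for the ancestor with the empty vector, and 3 for each of the other groups, described as independent experiments. Both plasmids carry LEU2, which replaces the deleted chromosomal copy, so every strain made its own leucine.

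Leucine, isoleucine and valine share a mitochondrial route. Acetohydroxyacid synthase, its reductoisomerase and its dehydratase act in both the isoleucine and the valine branch, and the leucine branch leaves the last intermediate of the valine branch. Yeast adjusts the pathway through feedback inhibition of its first enzymes, through the general control activator Gcn4, and through Leu3, which is switched on by the leucine precursor α-isopropylmalate.

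Levels are given as the log2 of the processed signal after subtraction of the median of the array, so that 0 is the array median. Levels of different genes come from different probes and are not set against each other. Differences are log2 differences between group means with the standard error of a linear model fitted with limma over all arrays, and p-values were adjusted by Benjamini-Hochberg over all genes tested. A gene is called changed at an adjusted p under 0.05. Genes at an unadjusted p under 0.05 are named without the share of all genes at that cut, and they are not calls. Arrays that do not overlap are likewise described without such a share, unless one is printed for the comparison. The number of arrays limits the precision.

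Median signals ran from 356 to 2278 over the arrays, between 85.8% and 95% of spots were well above background, and no spot was saturated. Replicate 3 of D11 with the empty vector had the lowest median signal and the lowest correlation with its replicates (r = 0.92). HIS3, LYS2 and URA3, deleted in this background, were too dim to be tested. The other 7 of 10 genes in this strain check, LEU2 and genes specific to α cells or to a cells, were bright enough. Levels of these mating-type genes are not given here. The genes of chromosome XII had a median log2 difference of 0.48 in D11 and 0.45 in B3 against the ancestor, all with the empty vector, and those of chromosome IX one of 0.46 in B3. Within the ancestor, chromosome XII had a median difference of 0.36 between the tRNA and the empty vector, although both groups are labelled as the unevolved strain. None of the 9 genes lies on chromosome XII or IX. Over the 8 chromosomes that carry them, the median difference of all genes was between -0.19 and -0.01 in D11 against the ancestor and between -0.13 and -0.06 for the tRNA in the ancestor.

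**Figure D1:**
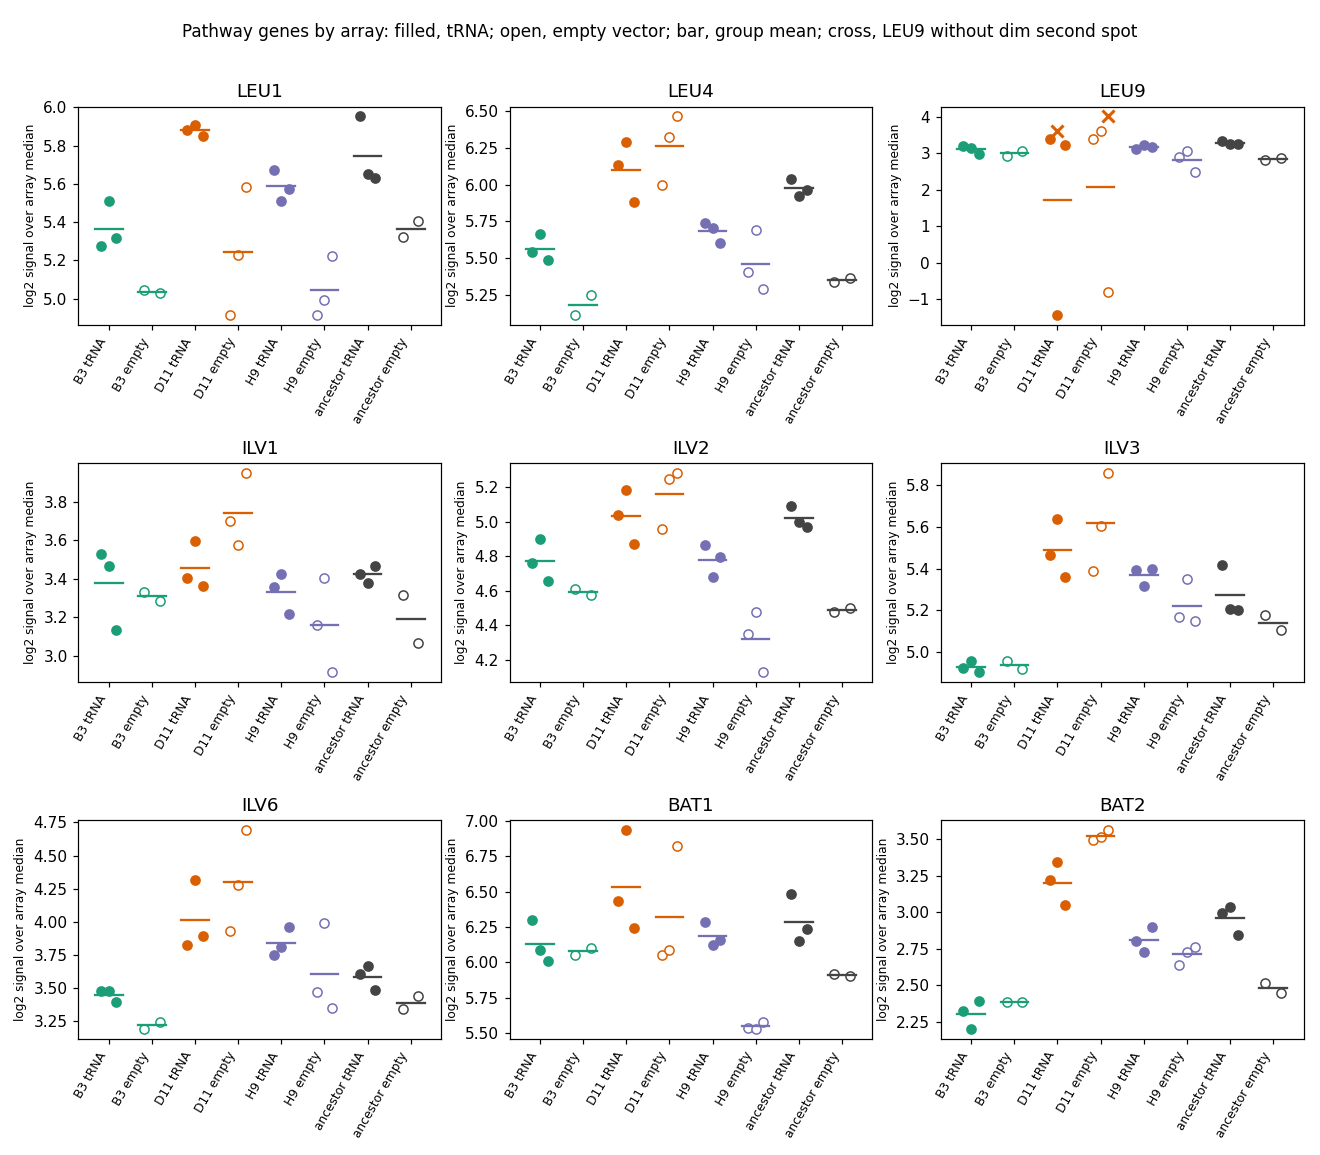
Level of each of the 9 genes on each array (log2 signal over the array median, 1 panel per gene with its own scale), with filled points for the tRNA, open points for the empty vector and a bar for the group mean. LEU4, ILV1, ILV2, ILV3, ILV6 and BAT2 have their highest group mean in D11 with the empty vector. The crosses show LEU9 on 2 D11 arrays after a dim second spot was left out.

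Without the mistranslating tRNA, D11 stood apart from the ancestor. LEU4, ILV1, ILV2, ILV3, ILV6 and BAT2 were higher, by 1.39-fold to 2.06-fold, and none of the 9 genes was lower at the threshold. This was 6 of 9, against 16% of all genes tested called higher in the same comparison. In bulk RNA a change in every cell and a change in a part of the cells cannot be told apart. The median log2 difference of the 9 genes was 0.55, and that of all genes tested was -0.01. On 7 of the 9 genes every D11 array lay above both ancestor arrays, where 57.9% of all genes tested had groups that did not overlap in either direction.

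LEU4 encodes the main α-isopropylmalate synthase, which commits carbon to leucine. Its levels were 6.0, 6.32 and 6.46 in D11 with the empty vector, against 5.34 and 5.36 in the ancestor. The groups were far apart, and the log2 difference was 0.91 (SE 0.14, adjusted p = 0.000265 with limma), or 1.88-fold. LEU1 encodes the isomerase of the next step and did not follow. It stood at 4.91, 5.23 and 5.58 in D11 and at 5.32 and 5.41 in the ancestor, which overlap. The log2 difference of LEU1 was -0.12 (adjusted p = 0.556 with limma), with a 95% interval between -0.45 and 0.20.

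ILV2 and ILV6 encode the catalytic and the regulatory subunit of acetohydroxyacid synthase, the first enzyme common to valine and isoleucine. ILV2 levels were 4.96, 5.25 and 5.28 in D11 and 4.48 and 4.50 in the ancestor. ILV6 levels were 3.93, 4.28 and 4.69 in D11 and 3.34 and 3.44 in the ancestor. Neither gene overlapped between the strains, and both subunit genes were higher in D11. The log2 differences were 0.67 for ILV2 (SE 0.12, adjusted p = 0.000889 with limma) and 0.91 for ILV6 (SE 0.20, adjusted p = 0.00336), or 1.60-fold and 1.88-fold. The ILV6 arrays of D11 were the more scattered, with an SD of 0.38 against 0.18 for ILV2.

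ILV1 encodes threonine deaminase, which opens the isoleucine branch, and ILV3 the dihydroxyacid dehydratase of both branches. ILV1 stood at 3.70, 3.58 and 3.95 in D11 and at 3.32 and 3.07 in the ancestor. ILV3 stood at 5.39, 5.60 and 5.86 in D11 and at 5.18 and 5.11 in the ancestor. Both were higher on every D11 array, by 0.55 on the log2 scale for ILV1 (SE 0.15, adjusted p = 0.0126 with limma) and 0.48 for ILV3 (SE 0.12, adjusted p = 0.00776). These were the smallest of the 6 changes, and both lost the call when replicate 2 of the ancestor with the empty vector was left out, which brought the count to 4 of 9.

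BAT1 and BAT2 encode the mitochondrial and the cytosolic branched-chain aminotransferase, which add the amino group in the last step and also start the breakdown of these amino acids. BAT2 levels were 3.49, 3.52 and 3.56 in D11, against 2.52 and 2.45 in the ancestor. With a log2 difference of 1.04 (SE 0.10, adjusted p = 2.8e-06 with limma), BAT2 had the largest change of the 9 genes and the only one above 2-fold. BAT1 levels were 6.05, 6.08 and 6.82 in D11 and 5.91 and 5.90 in the ancestor, a log2 difference of 0.41 that did not pass the test (adjusted p = 0.137 with limma). The BAT1 difference rested mainly on replicate 3 and was 0.16 without it. The sequences of BAT1 and BAT2 are related, as are those of LEU4 and LEU9, and whether a probe of one also binds the other was not tested.

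LEU9 encodes the second α-isopropylmalate synthase, and its result depended on single spots. Each probe is printed in 2 places. On replicate 3 of D11 with the empty vector the LEU9 spots read 5729 and 7.29, and on replicate 2 of D11 with the tRNA 6951 and 6.24, the second spot of each pair not being well above background. These arrays held 202 and 40 probes with 1 spot well above background and the other over 64-fold dimmer, against a median of 0.5 such probes on the other arrays. With both spots averaged, LEU9 levels were 3.39, 3.62 and -0.80 in D11 with the empty vector and 2.82 and 2.88 in the ancestor, a difference of -0.78 (SE 1.19, adjusted p = 0.638 with limma).

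With such dim second spots left out, a choice made after the data had been seen, LEU9 levels were 3.39, 3.62 and 4.01 in D11 with the empty vector, against 2.82 and 2.88 in the ancestor. The groups no longer overlapped, and the log2 difference became 0.82 (SE 0.17, adjusted p = 0.00173 with limma). The count of genes called higher in D11 was then 7 of 9, with a median of 0.67. The other 8 genes kept their calls under this choice in each of the 16 comparisons.

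Replicate 3 of D11 with the empty vector had the highest level of its group for 8 of the 9 genes, all except LEU9, and so had replicate 2 of D11 with the tRNA. These are the same arrays that held the defective spots and the lowest median signal of each group, and the part of this in the levels was not tested. Without replicate 3 of D11 with the empty vector, the same 6 genes were called higher in D11 than in the ancestor. The arrays of each replicate number lay on 1 slide. Within slide 1 and within slide 2, where both strains were present, 8 of 9 genes were higher in D11, with median differences of 0.48 and 0.74.

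**Figure D2:**
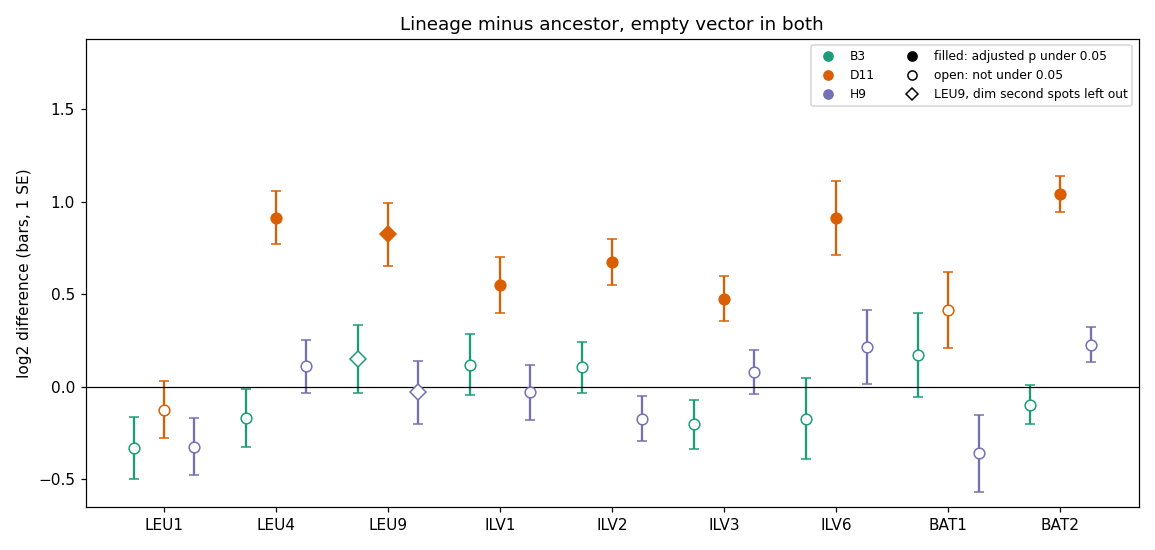
Log2 difference of each gene between B3, D11 or H9 and the ancestor, all with the empty vector, with bars of 1 SE; filled symbols have an adjusted p under 0.05. D11 has 7 filled symbols, LEU9 among them because its dim second spots were left out in this plot, while B3 and H9 have none.

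The other lineages did not show this rise. In B3 with the empty vector, 0 of 9 genes were called by limma, where 14.2% of all genes tested were called. None of the 9 had an unadjusted p under 0.05 or passed the methods' t-test, for which no share of all genes is given. The 9 differences ran between -0.33 for LEU1 and 0.17 for BAT1, with a median of -0.10. The groups, of 2 arrays each, did not overlap for 8 of 9 genes, where 79.5% of all genes tested did not. When only the compared groups entered the fit, LEU1, ILV3 and BAT1 were called. That fit called 1566 genes higher and 1676 lower of the 5911 tested, far more than the main fit.

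In H9 with the empty vector, limma also called 0 of 9, with 3.76% of all genes tested called. At an unadjusted p under 0.05 there was 1 gene, BAT2, at 2.64, 2.73 and 2.76 in H9, against 2.52 and 2.45 in the ancestor (log2 difference 0.23, adjusted p = 0.298). The median difference over the 9 genes was -0.03. BAT1 was the gene that differed most from the ancestor, at 5.53, 5.53 and 5.58 in H9 and 5.91 and 5.90 in the ancestor. The arrays of H9 were all lower, but the difference of -0.36 did not pass the limma test (adjusted p = 0.533), and BAT1 was the 1 gene with a p under 0.01 in the methods' t-test, which uses only these groups.

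The lineages were then set against each other. D11 exceeded B3 for LEU4, ILV2, ILV3, ILV6 and BAT2, 5 of 9 genes, against 6.83% of all genes tested called higher. The log2 differences were 1.08 for LEU4, 0.57 for ILV2, 0.68 for ILV3, 1.08 for ILV6 and 1.14 for BAT2. D11 exceeded H9 for 7 of 9 genes, against 20.4% of all genes tested. These were LEU4, ILV1, ILV2, ILV3, ILV6, BAT1 and BAT2, with log2 differences between 0.40 and 0.84. LEU9 joined both lists once its dim second spots were left out, at 0.67 over B3 (adjusted p = 0.0128 with limma) and 0.85 over H9 (adjusted p = 0.000579).

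LEU1 was called over neither lineage, at 0.20 over each, with 95% intervals between -0.12 and 0.53 for B3 and between -0.09 and 0.49 for H9. Over B3, ILV1 at 0.43 (adjusted p = 0.0797 with limma) and BAT1 at 0.24 (adjusted p = 0.478) were not called either. In H9 against B3, 1 of 9 genes was higher, BAT2 at 0.32 (adjusted p = 0.0198 with limma), where 13.1% of all genes tested were called higher. That call was lost without either array of B3. BAT1 leaned the other way, with levels of 5.53, 5.53 and 5.58 in H9 and 6.05 and 6.10 in B3. Its log2 difference was -0.53 and did not pass the test (adjusted p = 0.0667).

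The groups with the tRNA were compared with those with the empty vector within each strain. Chromosome XII had a median difference of 0.36 in the ancestor, against -0.01 in B3, 0.003 in D11 and 0.02 in H9. Plasmid and chromosome XII level thus changed together in the ancestor, and the part of each in the 9 genes was not tested. In the ancestor all 9 genes had a positive log2 difference, and all 9 had every tRNA array above both empty-vector arrays. Of all genes tested, 63.2% had groups that did not overlap in either direction. LEU4, ILV2 and BAT2 rose at the threshold, 3 of 9 against 9.07% of all genes tested called higher. The median difference of the 9 genes was 0.38, against -0.06 for all genes tested. Within slide 1 and within slide 2 all 9 differences were again positive, with medians of 0.52 and 0.31.

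LEU4 levels were 6.04, 5.93 and 5.97 in the ancestor with the tRNA and 5.34 and 5.36 with the empty vector. The 3 tRNA arrays lay close together, and the log2 difference was 0.63 (SE 0.14, adjusted p = 0.00593 with limma), or 1.54-fold. ILV2 levels were 5.09, 5.0 and 4.97 with the tRNA and 4.48 and 4.50 with the empty vector, a difference of 0.53 (SE 0.12, adjusted p = 0.00669). BAT2 levels were 3.00, 3.03 and 2.84 with the tRNA and 2.52 and 2.45 with the empty vector, a difference of 0.48 (SE 0.10, adjusted p = 0.00262). These genes stand for the first step of leucine synthesis, the first common step and the cytosolic transamination. The call on BAT2 held without any single array, whereas LEU4 and ILV2 lost theirs without either of the 2 ancestor arrays with the empty vector, which left 1 of 9. LEU1 had a difference of 0.38 that did not pass (adjusted p = 0.0882), and the other 5 genes had differences between 0.13 for ILV3 and 0.44 for LEU9.

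**Figure D3:**
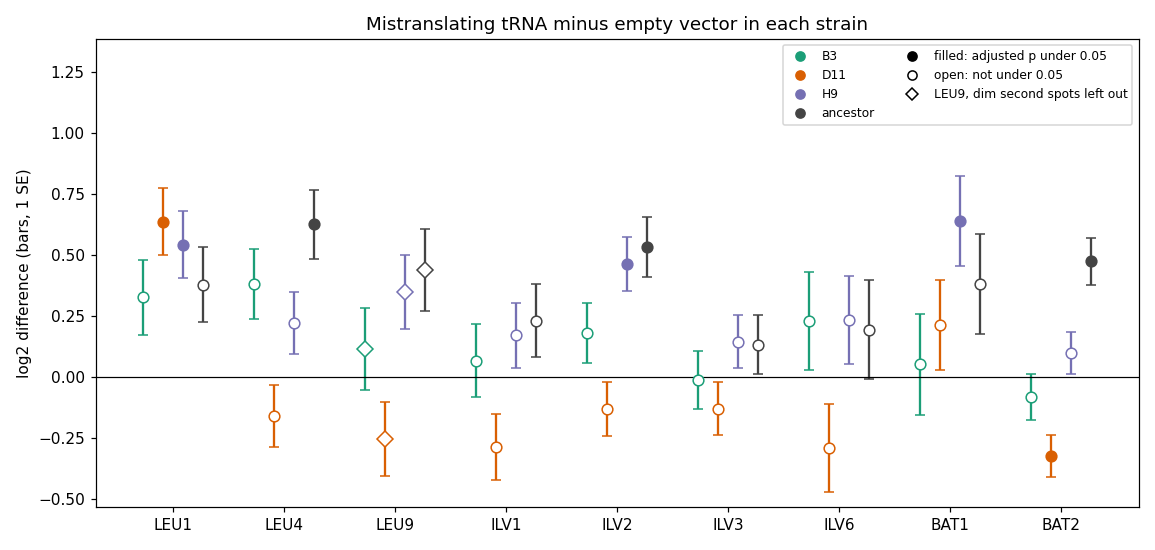
Log2 difference between the mistranslating tRNA and the empty vector for each gene within B3, D11, H9 and the ancestor, with bars of 1 SE; filled symbols have an adjusted p under 0.05, and LEU9 is shown with dim second spots left out. LEU4, ILV2 and BAT2 are filled in the ancestor, and in D11 LEU1 is filled above 0 and BAT2 below it.

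In D11 the tRNA was followed by changes in both directions. LEU1 was higher and BAT2 lower, 2 of 9, with 3.37% of all genes tested called, and 7 of the 9 differences were negative. The slides differed, with 6 of 9 differences positive on slide 1 (median 0.08), 5 of 9 on slide 2 (median 0.02) and 2 of 9 on slide 3 (median -0.51), which held replicate 3 of D11 with the empty vector, one of the arrays with defective spots. LEU1 levels were 5.88, 5.91 and 5.85 in D11 with the tRNA, against 4.91, 5.23 and 5.58 with the empty vector. Every tRNA array was above every empty-vector array, and the difference was 0.64 (SE 0.14, adjusted p = 0.0146 with limma), or 1.56-fold. D11 with the tRNA was the group with the highest mean of LEU1 in the series.

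BAT2 levels were 3.22, 3.34 and 3.05 in D11 with the tRNA and 3.49, 3.52 and 3.56 with the empty vector. The groups did not overlap, with a difference of -0.32 (SE 0.09, adjusted p = 0.0491 with limma), so close to the threshold that BAT2 lost the call under most other settings. Within the slides the BAT2 difference was -0.28, -0.18 and -0.51. Leaving out replicate 1 or 3 of D11 with the tRNA, or replicate 2 with the empty vector, brought the count in D11 to 0.

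In H9 the tRNA raised LEU1, ILV2 and BAT1, 3 of 9, against 5.58% of all genes tested called higher, and all 9 differences were positive with a median of 0.24. BAT1 levels were 6.28, 6.12 and 6.16 in H9 with the tRNA and 5.53, 5.53 and 5.58 with the empty vector, well apart, with a difference of 0.64 (SE 0.18, adjusted p = 0.0385 with limma). LEU1 levels were 5.67, 5.51 and 5.58 with the tRNA and 4.91, 4.99 and 5.22 with the empty vector, a difference of 0.54 (SE 0.14, adjusted p = 0.0235). ILV2 levels were 4.87, 4.68 and 4.80 with the tRNA and 4.35, 4.48 and 4.13 with the empty vector, a difference of 0.46 (SE 0.11, adjusted p = 0.0192). None of the 3 genes overlapped between the plasmids, and 4 of the 9 did not, for which no share of all genes is given. Every H9 array mattered to this count, which was 0 without replicate 1 or replicate 3 of H9 with the tRNA and at most 2 without any other single H9 array.

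In B3 limma called 0 of 9 genes, with 1.07% of all genes tested called. At an unadjusted p under 0.05 there were 2 genes, LEU1 with a difference of 0.33 and LEU4 with one of 0.38. LEU4 levels were 5.54, 5.67 and 5.49 in B3 with the tRNA and 5.11 and 5.25 with the empty vector. The groups did not overlap, but the adjusted p was 0.452.

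Whether a lineage responded to the tRNA differently from the ancestor was tested directly, as the difference between the responses. Chromosome XII had a median of -0.37 in this contrast for B3, -0.32 for D11 and -0.35 for H9. The plasmid and the chromosome XII level of the ancestor cannot be told apart in it. In D11 the response was lower than in the ancestor for LEU4, ILV2 and BAT2, 3 of 9, against 7.09% of all genes tested called lower. The differences between responses were -0.79 for LEU4 (SE 0.19, adjusted p = 0.0140 with limma), -0.66 for ILV2 (SE 0.17, adjusted p = 0.0158) and -0.80 for BAT2 (SE 0.13, adjusted p = 0.00145). The response of LEU4 was -0.16 in D11 and 0.63 in the ancestor, and that of ILV2 was -0.13 in D11 and 0.53 in the ancestor. Within slides 1, 2 and 3 the D11 response was 0.13, -0.03 and -0.58 for LEU4 and 0.08, -0.065 and -0.41 for ILV2. Slide 3 held replicate 3 of D11 with the empty vector, which had defective spots, and no ancestor array with the empty vector. The same 4 groups enter this test and the comparisons above, so the values are not separate evidence. Without either ancestor array with the empty vector, BAT2 alone remained.

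With the dim second spots left out, LEU9 was also lower in its response, by -0.69 (adjusted p = 0.0429 with limma). LEU1 did not share this pattern, as its response was 0.64 in D11 and 0.38 in the ancestor, with a difference of 0.26 (adjusted p = 0.415). The response of B3 differed from that of the ancestor for 0 of 9 genes, where 0.863% of all genes tested were called. The nearest was BAT2, at -0.56 (adjusted p = 0.0566), the 1 gene with an unadjusted p under 0.05. For H9 the count was also 0 of 9, where 0.829% of all genes tested were called, and BAT2 was again the 1 gene with an unadjusted p under 0.05, at -0.38 (adjusted p = 0.220).

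The lineages were also compared with the ancestor with the tRNA in both strains. Chromosome XII then had a median difference of 0.07 in B3, 0.12 in D11 and -0.40 in H9. With the empty vector these medians were 0.45, 0.48 and -0.06. In D11, 0 of 9 genes were called by limma, where 8.56% of all genes tested were called, and ILV6 at 0.43 and BAT2 at 0.24 had an unadjusted p under 0.05. ILV6 levels were 3.82, 4.32 and 3.89 in D11 with the tRNA and 3.61, 3.67 and 3.48 in the ancestor with the tRNA. These did not overlap, but the adjusted p was 0.171. LEU9 in D11 was at -1.56 with both spots averaged and at 0.13 with dim second spots left out. In H9 the count was 0 of 9, where 12.8% of all genes tested were called, and LEU4 at -0.29 and ILV2 at -0.24 had an unadjusted p under 0.05.

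In B3 with the tRNA all 9 differences from the ancestor with the tRNA were negative, with a median of -0.25, while the median of all genes tested was 0.01. BAT2 was the 1 gene called lower, where 1.62% of all genes tested were called lower. Its levels were 2.32, 2.20 and 2.39 in B3 with the tRNA, against 3.00, 3.03 and 2.84 in the ancestor with the tRNA. The groups were far apart, and the difference was -0.65 (SE 0.09, adjusted p = 0.000251 with limma), or 1.57-fold lower. The BAT2 call held without any single array of these groups. LEU1, LEU4, ILV2 and ILV3 had an unadjusted p under 0.05, with differences of -0.38, -0.41, -0.25 and -0.35. They were not called, and no share of all genes at that cut is given.

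Over the 8 groups, 6 of the 9 genes had their highest mean in D11 with the empty vector, and LEU1 and BAT1 had it in D11 with the tRNA. For BAT2 the means ran down through 3.52 in D11 with the empty vector, 3.20 in D11 with the tRNA, 2.96 in the ancestor with the tRNA, 2.81 in H9 with the tRNA, 2.71 in H9 with the empty vector, 2.48 in the ancestor with the empty vector, 2.39 in B3 with the empty vector and 2.30 in B3 with the tRNA. Neighbours in this order were no more than 0.32 apart, and the SD within groups was 0.09 when pooled. LEU4 followed the same order in its first 4 groups, with 6.26, 6.10, 5.98 and 5.68. For LEU1 the 4 groups with the tRNA had the highest means, at 5.88 in D11, 5.74 in the ancestor, 5.59 in H9 and 5.37 in B3, the last level with the ancestor with the empty vector at 5.37.

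The genes rose and fell together across the arrays to different degrees. Over the 22 arrays Pearson's r was 0.91 between ILV3 and ILV6, 0.90 between ILV3 and BAT2 and 0.89 between LEU4 and ILV2. LEU1 correlated most with BAT1 at 0.71 and, LEU9 aside, least with ILV1 at 0.19. With both spots averaged, LEU9 correlated negatively with every other gene of the list, between -0.59 with BAT1 and -0.26 with LEU1. With its dim second spots left out, LEU9 correlated at 0.92 with ILV2, at 0.90 with LEU4 and at 0.42 with LEU1. These are descriptions over arrays that share groups, slides and scaling, and the arrays are not independent points. When group means were taken out, LEU4 and ILV2 still correlated at 0.88 and ILV3 and ILV6 at 0.83, but ILV3 and BAT2 only at 0.46.

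GCN4, which encodes the transcription activator of the general amino acid control, was the gene outside the list most like both ILV3 and ILV6, with r = 0.94 for each over the 22 arrays. GCN4 levels were 4.95, 5.44 and 5.54 in D11 with the empty vector, against 4.46 and 4.53 in the ancestor. The groups did not overlap, and the log2 difference was 0.82 (adjusted p = 0.000585 with limma). With LEU1 the correlation of GCN4 was 0.34. GCN4 is controlled largely in translation, which these arrays did not measure.

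**Figure D4:**
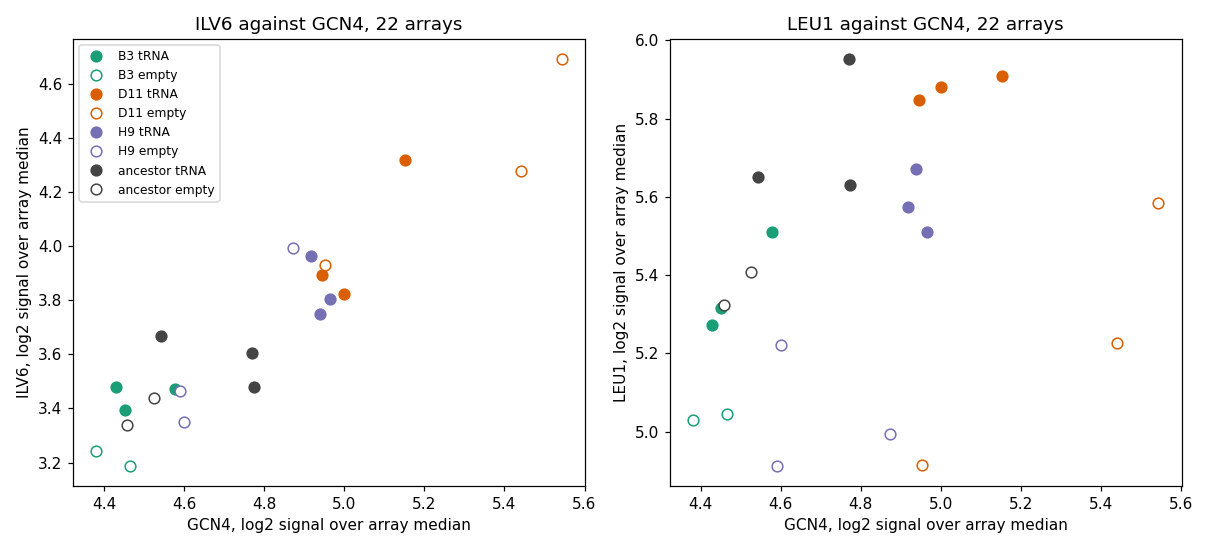
Levels of ILV6 (left) and LEU1 (right) against GCN4 on the 22 arrays, all as log2 signal over the array median, with filled points for the tRNA and open points for the empty vector. Pearson's r is 0.94 for ILV6 and 0.34 for LEU1, for which the arrays with the tRNA lie mostly above those with the empty vector.

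Among the other genes most like single members were ATG41 for LEU4 (r = 0.94), SNZ1 for BAT2 (r = 0.90), PAN5 for LEU1 (r = 0.89), BRR6 for BAT1 (r = 0.89) and PRS4 for ILV1 (r = 0.88). For LEU9 it was NUP120 (r = 0.98). Its spots come within 3 rows and within 3 columns of the dim LEU9 spot, each distance being the smallest over its spots. With dim second spots left out, it was ARO2 of the aromatic pathway (r = 0.95). The genes most like the mean of the 9 were then BAP2 (r = 0.95), SAM4 (r = 0.94), SDT1 (r = 0.93), ARG7 (r = 0.93) and ARO2 (r = 0.92). With all spots averaged they were ARG1, ATG41, ARG2, GGC1 and QDR3, with r between 0.84 and 0.88.

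Leu3 and its other targets were mixed. LEU3, the regulator, stood at -0.18, -0.01 and 0.16 in D11 with the empty vector, against -1.14 and -1.10 in the ancestor, a log2 difference of 1.11 (adjusted p = 0.00087 with limma). LEU3 lies on chromosome XII, whose genes had a median difference of 0.48, and the part of this in its level was not tested. BAP2, a permease for branched-chain amino acids, stood at 3.52, 3.72 and 4.11 in D11 and at 3.02 and 2.98 in the ancestor. The arrays did not overlap, with a difference of 0.78 (adjusted p = 0.0015). GDH1, a glutamate dehydrogenase gene, was called lower at -2.27 (adjusted p = 0.0299), but with dim second spots left out it was -0.74 and not called (adjusted p = 0.0521), and without replicate 3 of D11 it was -1.01 and called (adjusted p = 0.0109). OAC1, which encodes a mitochondrial oxaloacetate carrier, had a difference of -0.43 that did not pass (adjusted p = 0.457).

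Within the ancestor LEU3 was higher with the tRNA by 0.74 (adjusted p = 0.017 with limma), with a chromosome XII median of 0.36. BAP2 was higher with the tRNA by 0.63 (adjusted p = 0.00903). LEU3 correlated at 0.85 with LEU9, its dim second spots left out, at 0.83 with ILV1 and at 0.09 with LEU1 over the 22 arrays.

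The remaining enzymes of the pathway are ILV5, the reductoisomerase gene, and LEU2, the isopropylmalate dehydrogenase gene that serves as the plasmid marker. ILV5 stood at 5.66, 5.91 and 6.37 in D11 with the empty vector and at 5.46 and 5.40 in the ancestor. It was called higher and, like LEU3, lies on chromosome XII, and it lost the call without replicate 3 of D11. LEU2 stood at 5.05, 4.71 and 4.81 in the ancestor with the tRNA, against 6.12 and 6.26 with the empty vector. The difference was -1.34 (adjusted p = 0.000107 with limma), between cells whose LEU2 is carried by different plasmids.

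Other genes around the pathway were counted in the same way for D11 against the ancestor with the empty vector. Of the genes that supply or use threonine, the precursor of isoleucine, 5 of 6 were higher with a median of 0.61, among them HOM3, the aspartate kinase gene, at 0.67 (adjusted p = 0.00467 with limma) and CHA1, a serine and threonine deaminase gene, at 0.82 (adjusted p = 0.0150). The count was 3 of 6 without replicate 3 of D11. Of 29 genes of the arginine, lysine, histidine, tryptophan and further amino acid pathways, 17 were higher and 0 lower, with a median of 0.57. LYS20, a homocitrate synthase gene, was at 1.74, ARG3, the ornithine carbamoyltransferase gene, at 1.61 and TRP4 of the tryptophan pathway at 1.54. The branched-chain genes thus had a median of 0.55 beside 0.57 for these pathways, and no difference between the lists was tested.

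Transport and breakdown genes did not move as one. Of 8 genes for amino acid uptake and its sensor, 1 was higher, BAP2, and 2 were lower, the general permease gene GAP1 at -1.88 (adjusted p = 0.000307 with limma) and AGP1 at -0.92 (adjusted p = 0.038). Of 6 genes for the breakdown to fusel alcohols, 2 were higher, ARO10, a decarboxylase gene, at 0.88 and SFA1, an alcohol dehydrogenase gene, at 0.41. Of 4 genes of the Gcn4 control, GCN4 and the kinase gene GCN2 were higher, and GCN2, at 0.54 (adjusted p = 0.0212), lost the call without replicate 3 of D11. The 4 genes for leucyl and seryl tRNA synthetases and the 2 genes of the pantothenate branch had none called.

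For the tRNA in the ancestor, 15 of the 29 genes of other amino acid pathways were higher and 0 lower, with a median of 0.43 beside 0.38 for the branched-chain genes. Among the threonine genes HOM3 was higher at 0.70 (adjusted p = 0.00474 with limma), and CHA1 was lower at -1.33 (adjusted p = 0.000941). In D11 against the ancestor, as given above, CHA1 was higher. GAP1 was lower at -1.16 (adjusted p = 0.0132), and of the Gcn4 control genes 0 of 4 were called. These 2 comparisons share the ancestor arrays with the empty vector.

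**Figure D5:**
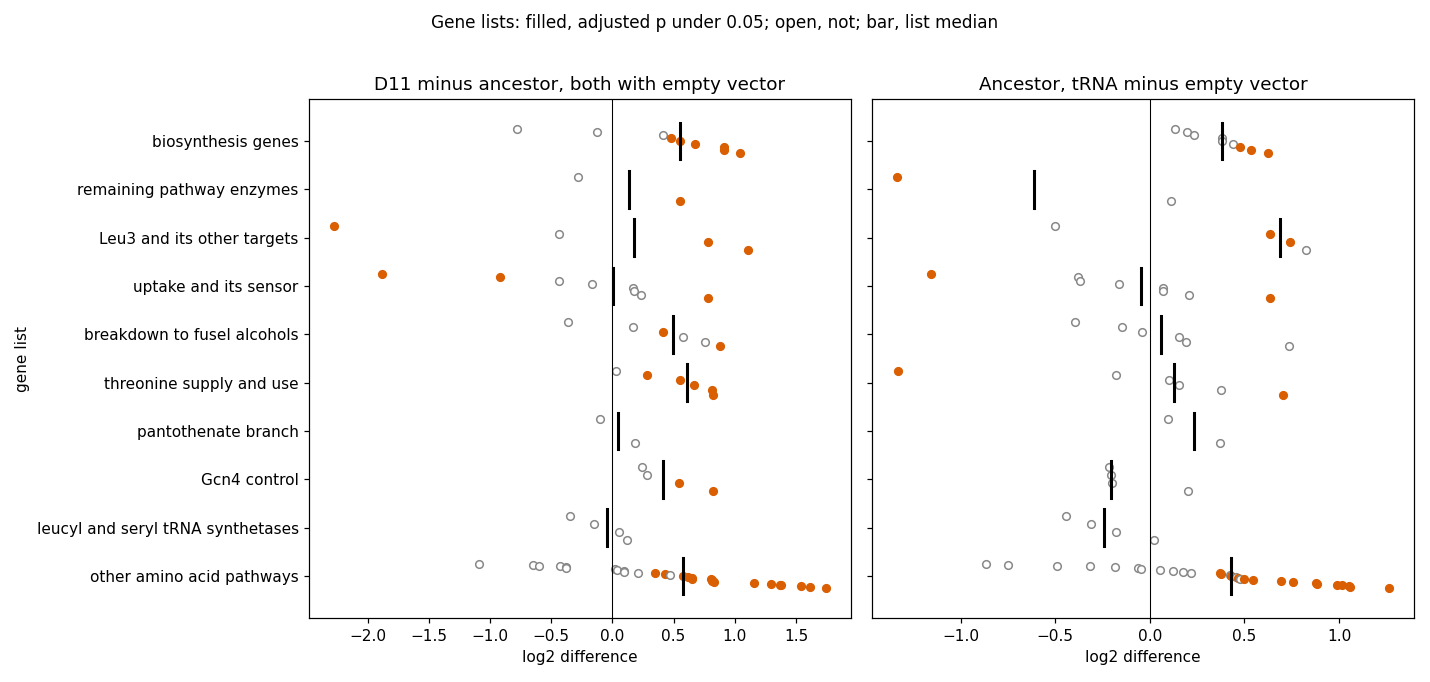
Log2 difference of every gene tested in each list (points), for D11 against the ancestor with the empty vector (left) and for the tRNA against the empty vector in the ancestor (right), with a bar at the list median and filled points for an adjusted p under 0.05. The 9 biosynthesis genes have medians of 0.55 on the left and 0.38 on the right.

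In the remaining comparisons the medians of these 29 genes lay on the same side of 0 as those of the branched-chain genes in some cases and not in others, and likeness was not tested. In H9 the tRNA raised 8 of the 29 and lowered 1, MET6 of the methionine pathway, with a median of 0.28 beside 0.24 for the branched-chain genes. In B3 with the tRNA none was called, with a median of 0.18 beside 0.12. In D11 with the tRNA 0 were higher and 1 lower, with a median of -0.21 beside -0.16. In B3 and H9 against the ancestor, all with the empty vector, 2 and 1 of the 29 were higher and 2 and 0 lower. The medians were 0.07 beside -0.10 for the branched-chain genes in B3 and -0.10 beside -0.03 in H9. With the tRNA in both strains, D11 against the ancestor had a median of -0.04 beside 0.13 for the branched-chain genes. For the response of D11 minus that of the ancestor, 16 of the 29 were lower and 0 higher. The median was -0.57 beside -0.52 for the branched-chain genes, so the lower response was not particular to them.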

How the data were processed

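RNA of 22 yeast cultures was hybridised by the authors to one-colour Agilent arrays designed on sacCer2. The deposited spot intensities came from Feature Extraction 10.7.3.1, which subtracts background and a spatial trend. The authors' deposited log2 table differs from log2 background-subtracted signals by 1 constant per array where those signals are positive. Spots without a positive signal stand at 0 there, from 69 on replicate 3 of D11 with the tRNA to 632 on replicate 3 of D11 with the empty vector. These zeros were kept where the deposited values served as an alternative. Here, outlier and control spots were left out, log2 processed signals were centred on the array median, following the published methods, and spots, then probes, were averaged per gene. Genes needed a spot well above background on every array of 1 group, which kept 5911. RefSeq R64 gave names only, for 5589 of these. The 16 comparisons were tested in 1 model (limma 3.58.1, R 4.3.3) with a coefficient per group, 14 residual and 2.24 prior degrees of freedom, checked on simulated data. No mean-signal column was present, so normexp, as an alternative, used median signals. Other alternatives changed the scaling, filter, samples, block and threshold.

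All 9 members are accounted for. Of other lists, all counts are given, with a few leading genes named. Members and lists were chosen with earlier results of these data known. Genes singled out as exceptions were chosen after their values were seen. P-values measure the spread between these arrays. The gene most like ILV2 is not reported here.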

Additional observations from a re-analysis of the deposited data

Results flagged for a closer look

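Differences between strains under the same contrast were tested directly for the 9 genes, and 16 of them passed the adjusted threshold with limma. For the response to the tRNA, D11 minus the ancestor was -0.79 for LEU4, -0.66 for ILV2 and -0.80 for BAT2. Chromosome XII had a median of -0.32 in that contrast. With the empty vector, D11 minus B3 was 1.08 for LEU4, 0.57 for ILV2, 0.68 for ILV3, 1.08 for ILV6 and 1.14 for BAT2. D11 minus H9 was 0.80 for LEU4, 0.58 for ILV1, 0.84 for ILV2, 0.40 for ILV3, 0.70 for ILV6, 0.77 for BAT1 and 0.81 for BAT2. H9 minus B3 was 0.32 for BAT2. All are log2 differences, and the D11 arrays with the empty vector enter 15 of the 16. No group had enough arrays for a test of single outlying samples.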

How the results depend on the processing

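None of the 9 genes, where called in the reported analysis, changed direction under any alternative run. LEU9, not called there, turned with dim second spots left out. With the empty vector, D11 was then 0.82 over the ancestor in place of -0.78. It was 0.67 over B3 in place of -0.93 and 0.85 over H9 in place of -0.75. With the tRNA in both strains, D11 was 0.13 over the ancestor in place of -1.56, not called either way. Over the called genes, 216 values under other settings kept their side of the threshold and 32 lost it, and 151 and 35 did so when single arrays were left out. The cause of each change below was not tested unless the setting itself removes arrays or raises the threshold.

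Scaling to the 75th percentile gave 2 genes for B3 against the ancestor with the tRNA, 1 for the tRNA in D11 and 2 for H9 against B3. Centring on chromosomes without copy number change, and normexp on median signals, each gave 1 for the tRNA in D11 and 2 for H9 against B3. With no filter, the tRNA in D11 had 1. The deposited series values gave 3 for B3 against the ancestor with the tRNA, 5 for the tRNA in the ancestor, 1 for the tRNA in D11 and 3 for H9 against B3. Over all genes, D11 against the ancestor with the empty vector had 947 higher and 828 lower, but 1203 and 621 with that centring and 744 and 999 with the deposited series values, where the median of all genes was -0.13 in place of -0.01.

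With the replicate number as a block, the tRNA in D11 had 1 gene, LEU1, in place of 2, and no other count of these 9 genes moved by over 1.5 times. The numbers are also those of the slides. Same-numbered arrays of different groups correlated in their deviations between -0.56 and 0.60, over 0.1 in 22 of 71 pairs, so the numbers were not taken to pair the cultures.

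With only the compared groups in the fit, the counts were 3 for B3 and 3 for D11 against the ancestor with the empty vector, 2 for B3 against the ancestor with the tRNA, 0 for the tRNA in D11 and in H9, 1 for the response of B3 and 0 for D11 against B3 or H9. Such fits hold fewer arrays, and their calls over all genes differed widely. They had 1566 higher and 1676 lower for B3 and 499 and 360 for D11 against the ancestor with the empty vector. For B3 against the ancestor with the tRNA they had 196 and 101, and for the response of B3 440 and 378. The tRNA gave 11 and 2 in D11 and 7 and 9 in H9. D11 had 9 and 2 against B3 and 0 and 2 against H9. Requiring a 2-fold change left 1 gene for D11 against the ancestor and 3 for D11 against B3, all with the empty vector. It left 0 for B3 against the ancestor with the tRNA, for the tRNA in the ancestor, D11 and H9, for the response of D11, and for D11 against H9 and H9 against B3. Over all genes, with the empty vector, it left 201 higher and 197 lower for D11 against the ancestor. For D11 against B3 it left 66 and 61. The methods' t-test gave 1 gene for D11 at its threshold and 1 after Benjamini-Hochberg, BAT2, and for H9 1 at its threshold, BAT1.

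Leaving out single arrays gave counts of 4 to 6 for D11 against the ancestor with the empty vector, 0 to 1 for the same with the tRNA and 1 to 1 for B3 with the tRNA. The tRNA gave 1 to 3 in the ancestor, 0 to 2 in D11 and 0 to 2 in H9. The response of D11 against that of the ancestor gave 1 to 3. D11 gave 4 to 5 against B3 and 6 to 8 against H9, and H9 gave 0 to 1 against B3. The other 6 counts were 0 to 0. Where 1 array of a group was left, it was taken to vary like the other groups.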
